A study of Mus musculus with 11 samples.

Results

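The genes described here encode the chemokines, the adipokine chemerin and their receptors, as measured by RNA sequencing of gonadal white adipose tissue. They were chosen by symbol: every listed gene named as a CC or CXC chemokine ligand, a CC or CXC chemokine receptor or an atypical chemokine receptor, together with Cx3cl1, Cx3cr1, Ccrl2, Cmklr1, Rarres2, Pf4 and Ppbp. The rule found 36 of the 12787 listed genes, of which 22 encode ligands and 14 encode receptors. Ppbp was not listed. The RefSeq annotation holds 70 symbols that fit the rule, so 34 of them, 24 ligand and 10 receptor symbols (pseudogenes included), were not listed.

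Chemokines are small secreted proteins that guide leukocytes along concentration gradients by binding G-protein-coupled receptors on the moving cell. In obese adipose tissue they are best known for recruiting monocytes that become macrophages. Most ligands bind several receptors and most receptors bind several ligands, while the atypical receptors take up ligands without signalling through G proteins. Chemerin, the product of Rarres2, is not a chemokine by fold but also attracts leukocytes, and is secreted by adipocytes and hepatocytes.

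All 11 mice were C57Bl6/J and were fed a 60% high fat diet (HFD). A figure legend of the study describes males kept on this diet for 20 weeks. The control group of 5 mice received the diet alone, labelled vehicle, and the other 6 mice received the same diet with 0.06% w/w iodomethylcholine (IMC), a small molecule that blocks the enzyme with which gut bacteria make trimethylamine from choline. The submitters state that a further control sample failed quality control and was dropped. Each mouse gave 1 mRNA library from a piece of whole tissue, and the comparison asks how the diet with IMC changed the transcriptome of the fat depot.

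Depth was even, with 22320022 to 23635249 reads on the listed genes in HFD mice and 22619505 to 25155366 in HFD + IMC mice. Levels are given in CPM, the reads of a gene relative to the scaled library size, and differences as log2 fold changes of HFD + IMC against HFD with their standard errors (SE). A gene was called changed at a limma adjusted p below 0.05 over all 12787 genes. Of all genes, 40.9% were called, so a call was common in this comparison. Markers of the labelled tissue were abundant: the 7 adipocyte genes looked at summed to 9553 to 13612 CPM in HFD mice and to 18782 to 22841 CPM in HFD + IMC mice.

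Chemokine system genes fell more often than they rose in the IMC-treated mice. Of the 36 genes, 12 fell (33.3%, against 21.0% of all genes), 2 rose (5.56%, against 20.0% of all genes) and 22 were not called. Among the ligands, Ccl3, Ccl4, Ccl6, Ccl9, Ccl11, Cxcl14, Cxcl16 and Pf4 fell and Rarres2 rose. Among the receptors, Ccr1, Ccr3, Ccr7 and Cxcr4 fell and Ccr2 rose. The median log2 fold change was -0.29 over the 22 ligands, -0.14 over the 14 receptors and -0.03 over all genes. For 6 genes every IMC-treated mouse was below every HFD mouse, a separation found in 10.5% of all genes, and for Rarres2 every IMC-treated mouse was above, as in 12.5% of all genes. By class, the CXC ligands had 3 of 6 lower, whereas the CC ligands had 5 of 14 lower. None of the 5 atypical receptors was called by limma or by limma voom, although Ccrl2 had an unadjusted p below 0.05.

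**Figure D1:**
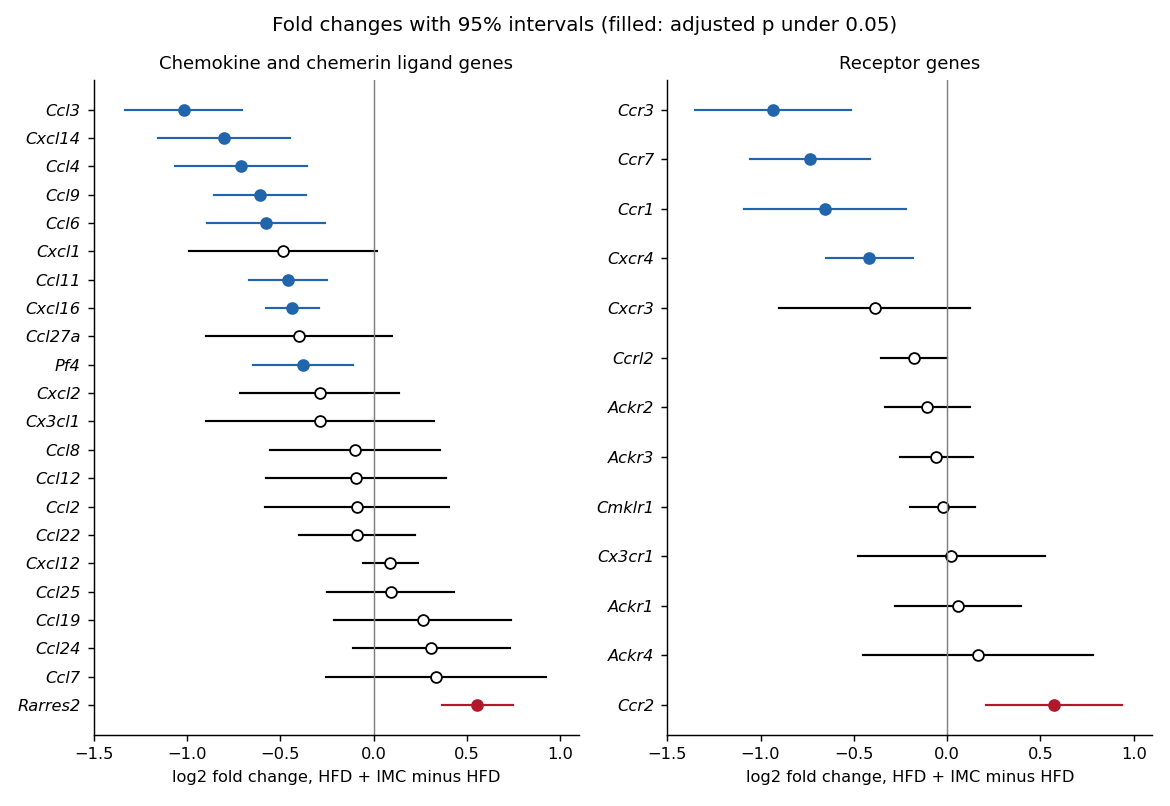
Log2 fold changes of HFD + IMC (n = 6) against HFD (n = 5) for the 22 ligand genes (left) and 13 of the 14 receptor genes (right), with 95% intervals as lines. Filled points are genes with an adjusted p below 0.05 (blue lower, red higher), and they run from Ccl3 at -1.02 to Ccr2 at 0.57.

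A group of neighbouring CC ligand genes fell together. Ccl9, Ccl6, Ccl3 and Ccl4 lie at chr11:83572917-83664683 (GRCm38.p6), and each of them passed the test. Ccl3 and Ccl4 encode macrophage inflammatory proteins, and Ccl3 binds Ccr1. Ccl6 and Ccl9 are CC chemokines of rodents that act on Ccr1. The 250 bases before the RefSeq start of Ccl9, Ccl6 and Ccl3 (GRCm38.p6, each on the minus strand, written 5′ to 3′ in the sense of the gene) are shown because these are the 3 fallen neighbours with a RefSeq window, and the windows allow their upstream sequences to be compared. Capitals mark matches to 2 published motif forms, GGGNNNNNCC for NF-kB and TGANTCA for AP-1, searched on both strands. The Ccl9 sequence is chr11:83578637-83578886, the Ccl6 sequence chr11:83593088-83593337 and the Ccl3 sequence chr11:83649379-83649628.
Ccl9: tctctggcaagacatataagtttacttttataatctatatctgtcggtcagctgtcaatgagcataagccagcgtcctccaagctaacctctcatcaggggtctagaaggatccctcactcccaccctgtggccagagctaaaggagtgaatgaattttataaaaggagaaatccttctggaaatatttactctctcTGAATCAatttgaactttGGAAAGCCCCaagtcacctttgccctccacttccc
Ccl6: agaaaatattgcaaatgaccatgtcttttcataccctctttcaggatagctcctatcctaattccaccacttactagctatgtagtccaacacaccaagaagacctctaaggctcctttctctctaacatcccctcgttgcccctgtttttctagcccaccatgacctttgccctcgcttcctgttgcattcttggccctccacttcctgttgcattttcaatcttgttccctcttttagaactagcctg
Ccl3: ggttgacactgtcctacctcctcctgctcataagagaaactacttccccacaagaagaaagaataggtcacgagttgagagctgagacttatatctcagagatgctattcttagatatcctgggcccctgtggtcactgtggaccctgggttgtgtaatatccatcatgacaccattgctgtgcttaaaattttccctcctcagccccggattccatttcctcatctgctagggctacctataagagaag
With the start base at 0, the Ccl9 sequence held 1 AP-1 match beginning at -53 and 1 NF-kB match beginning at -35, while those of Ccl6 and Ccl3 held no match to either form. The NF-kB form is loose and is present in 50.8% of all 32851 RefSeq windows of 300 bases (250 before and 50 after the start), and the AP-1 form in 7.81% of them. The third form, TTCNNNGAA for STAT factors, is in 8.30% of windows and among the chemokine system genes only in that of Cxcl14. Of the 32 windows of chemokine system genes, 17 held the NF-kB form and 3 the AP-1 form, against 67.0% and 5.43% of the 12440 windows of listed genes. Some genes have several windows. Counted by gene, 15 of the 27 genes with a window (55.6%) held the NF-kB form and 3 (11.1%) the AP-1 form. The longest run of bases shared by the Ccl9 and Ccl6 sequences was 13 bases, gccctccacttcc, beginning at -14 in Ccl9 and at -55 in Ccl6. The other pairs among these 3 genes and 3 receptor genes shared runs of 7 to 9 bases.

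Ccl9 took the most reads of the ligand genes, on a scale that favours long transcripts. It was at 990.0, 793, 949, 959 and 811 CPM in the 5 HFD mice and at 566, 507, 669.8, 751, 609 and 471 CPM in the 6 HFD + IMC mice. The lowest HFD mouse was above the highest IMC-treated mouse, and the level with IMC was 0.656 (95% interval 0.554 to 0.777) of that without. For Ccl9 the log2 fold change was -0.61 (SE 0.11, limma adjusted p = 0.00111), and the exact permutation p was 0.00433. Ccl6 was at 941, 766, 899, 945 and 652 CPM in the 5 HFD mice and at 546, 457, 611, 774, 602 and 423 CPM in the 6 HFD + IMC mice. Here 1 IMC-treated mouse, number 4, was above HFD mouse 5 and just above HFD mouse 2, so the groups overlapped, and the ratio of HFD + IMC to HFD was 0.670 (95% interval 0.539 to 0.834). For Ccl6 the log2 fold change was -0.58 (SE 0.15, limma adjusted p = 0.00714), and the exact permutation p was 0.0130. HFD + IMC mouse 4 was the highest of its group for both genes and HFD + IMC mouse 6 the lowest. Per kilobase of exon, a scale on which genes can be compared, Ccl6 and Ccl9 had the highest levels of the 36 genes, with 468 and 296 CPM per kb in HFD mice and 317 and 196 CPM per kb in HFD + IMC mice.

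Ccl3 had the largest decrease of the 36 genes. It was at 12.8, 8.62, 10.3, 9.20 and 9.55 CPM in the 5 HFD mice and at 4.03, 4.06, 6.86, 4.68, 5.11 and 5.40 CPM in the 6 HFD + IMC mice. All 6 IMC-treated mice were below all 5 HFD mice, and the ratio of HFD + IMC to HFD was 0.494 (95% interval 0.398 to 0.614). For Ccl3 the log2 fold change was -1.02 (SE 0.14, limma adjusted p = 0.000198), and the exact permutation p was 0.00433. Ccl4 was at 4.69, 3.44, 5.34, 4.29 and 3.59 CPM in the 5 HFD mice and at 2.98, 2.16, 3.55, 2.35, 2.56 and 2.11 CPM in the 6 HFD + IMC mice. Its groups overlapped slightly, since HFD + IMC mouse 3 was above HFD mouse 2, and the ratio of HFD + IMC to HFD was 0.611 (95% interval 0.478 to 0.780). For Ccl4 the log2 fold change was -0.71 (SE 0.16, limma adjusted p = 0.00404), and the exact permutation p was 0.00649. These levels rest on 92 to 284 reads per mouse for Ccl3 and on 49 to 127 reads for Ccl4. The annotated transcripts of the 2 genes overlap on opposite strands, and the strand setting of the count was not stated, so reads of one gene may be counted for the other.

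**Figure D2:**
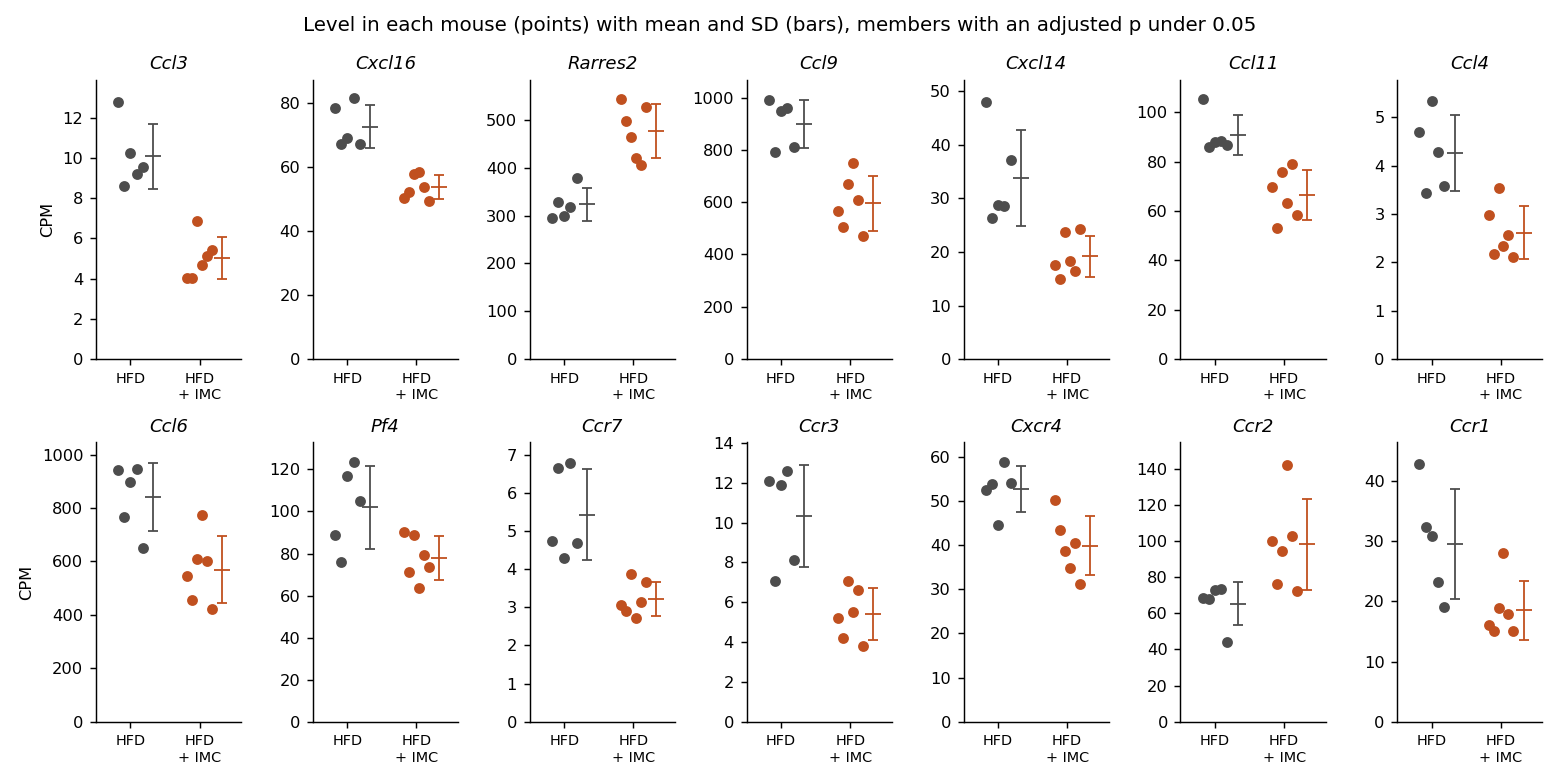
Level in CPM of the 14 called genes in each mouse, HFD (grey, n = 5) and HFD + IMC (orange, n = 6), with the group mean and SD beside the points; each axis starts at 0. The groups are apart in Ccl3, Cxcl16, Rarres2, Ccl9, Cxcl14, Ccl11 and Ccr7 and overlap in the other 7 genes.

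Macrophage markers were lower in the same comparison. Of 13 macrophage markers, 10 fell (76.9%, against 21.0% of all genes) and none rose (limma and limma voom). No marker rose at an unadjusted p below 0.05 either. The summed level of the markers was 9926 to 12528 CPM in HFD mice and 5963 to 8690 CPM in HFD + IMC mice. Adgre1, the gene of the macrophage surface protein F4/80, went from 906 to 611 CPM on average (log2 fold change -0.58, SE 0.14, adjusted p = 0.00593), and Cd68, a lysosomal protein gene of macrophages, from 1162 to 766 CPM (log2 fold change -0.61, SE 0.10, adjusted p = 0.000492). Among the markers of lipid-associated macrophages, Trem2, Cd9, Gpnmb and Itgax fell, and Spp1 was not listed. Lpl, which adipocytes also express, was not called by limma with trend but was called higher without trend, and all IMC-treated mice were above all HFD mice. HFD + IMC mice 4 and 6, the extremes for Ccl6 and Ccl9, were also the highest (8690 CPM) and the lowest (5963 CPM) of their group for the summed macrophage markers. The part of the marker change in the ligand values was not tested, and in bulk tissue fewer cells of a type and less RNA per cell cannot be told apart.

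A second cluster on the same chromosome, at chr11:82035577-82116799, holds Ccl2, Ccl7, Ccl11, Ccl12 and Ccl8. There Ccl11 fell and the other 4 genes were not called. Ccl2, the monocyte chemoattractant protein of the Ccr2 axis, was at 50.5, 47.7, 68.9, 41.2 and 33.1 CPM in the 5 HFD mice and at 58.3, 37.0, 53.8, 59.5, 44.1 and 24.2 CPM in the 6 HFD + IMC mice. The ranges overlapped widely, and the interval of the log2 fold change ran from -0.58 to 0.41 (estimate -0.09, adjusted p = 0.788 by limma), which leaves room for a change in either direction. Ccl7, which also binds Ccr2, was at 26.7, 23.6, 27.5, 19.0 and 11.6 CPM in the 5 HFD mice and at 35.5, 23.1, 33.4, 36.4, 24.7 and 13.0 CPM in the 6 HFD + IMC mice. Within each group the highest mouse was more than 2-fold above the lowest (log2 fold change 0.33, SE 0.27, limma adjusted p = 0.353). Ccl12, another Ccr2 ligand, had a mean of 2.10 CPM in HFD and 2.0 CPM in HFD + IMC mice (log2 fold change -0.10, SE 0.22, limma adjusted p = 0.760), and Ccl8, a ligand of Ccr8 in mice, had a mean of 49.7 CPM in HFD and 47.6 CPM in HFD + IMC mice (log2 fold change -0.10, SE 0.21, limma adjusted p = 0.736).

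Ccl11 encodes eotaxin-1, which attracts eosinophils through Ccr3. It was at 105, 85.7, 88.0, 88.5 and 86.6 CPM in the 5 HFD mice and at 69.5, 53.1, 75.9, 63.3, 78.9 and 58.3 CPM in the 6 HFD + IMC mice. The groups were apart, with HFD mouse 1 well above the other HFD mice, and the ratio of HFD + IMC to HFD was 0.727 (95% interval 0.629 to 0.842). For Ccl11 the log2 fold change was -0.46 (SE 0.10, limma adjusted p = 0.00251), and the exact permutation p was 0.00433. Without HFD mouse 1 the log2 fold change was -0.40 with an adjusted p of 0.00816. Ccl24, the gene of eotaxin-2, lies on chromosome 5 and was not called, with a mean of 3.48 CPM in HFD and 4.42 CPM in HFD + IMC mice (log2 fold change 0.31, SE 0.20, limma adjusted p = 0.225). Siglecf was the single listed eosinophil marker of 5 and was at 1.76 to 2.41 CPM in HFD and 0.934 to 2.27 CPM in HFD + IMC mice (adjusted p = 0.103 by limma, called lower without HFD + IMC mouse 4), while Epx, Prg2, Il5ra and Alox15 were not listed.

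**Figure D3:**
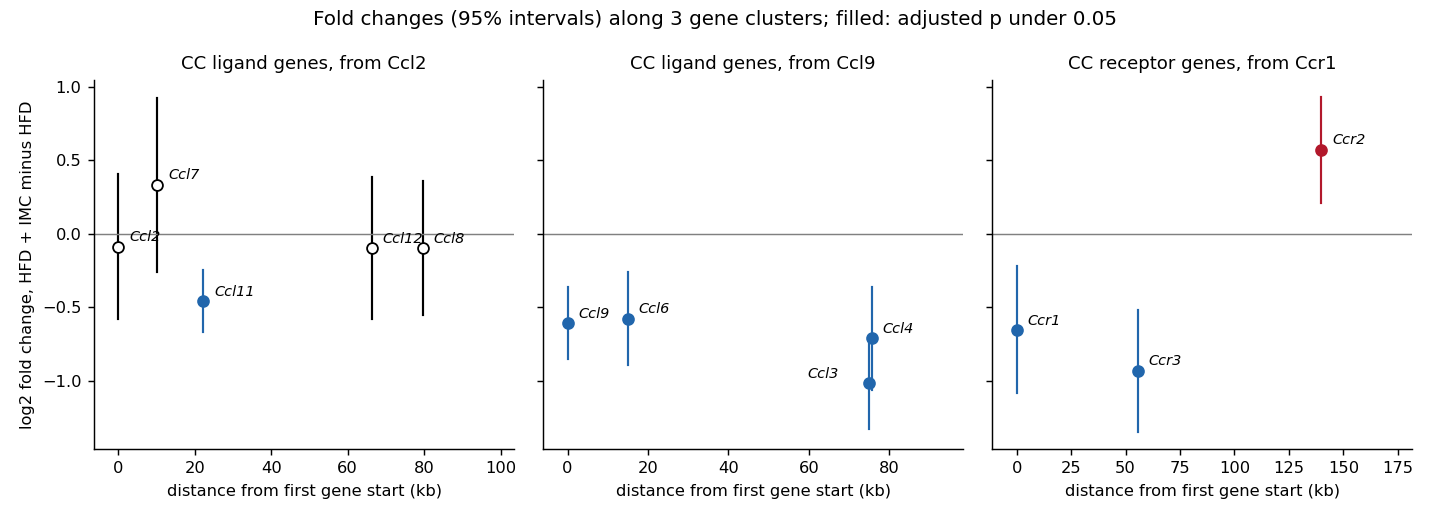
Log2 fold changes with 95% intervals along 3 gene clusters, plotted against the distance in kb from the start of the first gene; filled points have an adjusted p below 0.05. Ccl11 is the filled point among 5 genes from Ccl2, all 4 genes from Ccl9 are filled and below 0, and among the receptor genes from Ccr1 the genes Ccr1 and Ccr3 are below 0 while Ccr2 is above it.

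Among the CXC ligands, Cxcl14, Cxcl16 and Pf4 fell. Cxcl14 (chr13:56288643-56296811), a chemokine of stromal and epithelial cells, was at 48.0, 26.4, 28.7, 28.7 and 37.3 CPM in the 5 HFD mice and at 17.6, 14.9, 23.6, 18.4, 16.5 and 24.3 CPM in the 6 HFD + IMC mice. No IMC-treated mouse reached the lowest HFD mouse, HFD mouse 1 was the highest, and the ratio of HFD + IMC to HFD was 0.573 (95% interval 0.448 to 0.733). For Cxcl14 the log2 fold change was -0.80 (SE 0.16, limma adjusted p = 0.00200), and the exact permutation p was 0.00216. Progenitor and fibroblast markers moved in the same direction, with 4 of 6 lower (66.7%, against 21.0% of all genes). Their summed level was 2077 to 2350 CPM in HFD mice and 1505 to 1910 CPM in HFD + IMC mice. The part of these markers in the Cxcl14 values was not tested. Cxcl16 (chr11:70454389-70459984), a membrane-bound chemokine of macrophages and other antigen-presenting cells whose receptor is Cxcr6, was at 78.3, 67.0, 69.0, 81.5 and 67.3 CPM in the 5 HFD mice and at 50.3, 52.1, 57.8, 58.3, 53.9 and 49.5 CPM in the 6 HFD + IMC mice. The decrease was small but even across mice, with no overlap and a ratio of 0.740 (95% interval 0.670 to 0.817). For Cxcl16 the log2 fold change was -0.43 (SE 0.07, limma adjusted p = 0.000311), and the exact permutation p was 0.00216. Cxcr6 was not listed, and Cxcl16 overlaps the annotation of Zmynd15.

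Pf4 (chr5:90772435-90773383) encodes platelet factor 4, which platelets store in their granules and which some macrophages also express. It was at 88.8, 75.8, 117, 124 and 105 CPM in the 5 HFD mice and at 90.3, 71.4, 88.8, 63.8, 79.3 and 73.6 CPM in the 6 HFD + IMC mice. HFD mice 1 and 2 lay within the range of the IMC-treated mice, and the ratio of HFD + IMC to HFD was 0.770 (95% interval 0.639 to 0.928). For Pf4 the log2 fold change was -0.38 (SE 0.12, limma adjusted p = 0.0278), and the exact permutation p was 0.0411. The call was lost when any 1 of 5 mice was left out, with adjusted p-values of 0.0536 to 0.0761. Of 6 platelet markers, Itga2b and Itgb3 were listed and both fell (1 of them without HFD mouse 3), their sum being 28.2 to 44.4 CPM in HFD mice and 16.7 to 26.4 CPM in HFD + IMC mice, while Gp9, Gp1ba, Gp1bb and Gp5, which encode the platelet glycoprotein complexes, were not listed.

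The neutrophil attractants Cxcl1 and Cxcl2 lie near Pf4 on chromosome 5 and were not called. Cxcl1 was at 4.47, 5.96, 4.08, 3.45 and 1.93 CPM in the 5 HFD mice and at 3.11, 2.25, 2.88, 2.59, 3.09 and 2.23 CPM in the 6 HFD + IMC mice. HFD mouse 5 was the lowest of all 11 mice and HFD mouse 2 the highest (log2 fold change -0.48, SE 0.23, limma adjusted p = 0.114). Without HFD mouse 5 the log2 fold change was -0.72 and the adjusted p 0.00490, so this 1 library decided the call. Cxcl2 had a mean of 3.01 CPM in HFD and 2.40 CPM in HFD + IMC mice (log2 fold change -0.29, SE 0.20, limma adjusted p = 0.263). Their receptors Cxcr1 and Cxcr2 were not listed. Of 6 neutrophil markers, S100a8, Csf3r and Mmp9 were listed and none was called by limma or limma voom, although S100a8 had an unadjusted p below 0.05 and 1 marker was called higher without HFD mouse 5, HFD + IMC mouse 3 or HFD + IMC mouse 5.

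Cxcl12, which holds leukocytes and progenitors in tissues through Cxcr4, was not called. It was at 183, 177, 168, 158 and 182 CPM in the 5 HFD mice and at 184, 189, 165, 184, 172 and 218 CPM in the 6 HFD + IMC mice. The ranges overlapped, with 4 IMC-treated mice above the highest HFD mouse, and the interval of the log2 fold change was -0.06 to 0.24 (log2 fold change 0.09, SE 0.07, limma adjusted p = 0.316). For comparison, the interval of Ccl7 was -0.26 to 0.93.

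Rarres2, the chemerin gene at chr6:48569696-48572845, was the ligand that rose. It was at 294, 328, 298, 318 and 379 CPM in the 5 HFD mice and at 544, 497, 465, 419, 406 and 527 CPM in the 6 HFD + IMC mice. Each IMC-treated mouse was above each HFD mouse, and the level with IMC was 1.47 (95% interval 1.29 to 1.68) times that without. For Rarres2 the log2 fold change was 0.56 (SE 0.09, limma adjusted p = 0.000394), and the exact permutation p was 0.00216, the smallest p that 462 splits of the mice allow. All 7 adipocyte markers rose as well, against 20.0% of all genes. Among them were Adipoq, the adiponectin gene, from 874 to 1948 CPM on average (log2 fold change 1.18, SE 0.15, limma adjusted p = 0.000103), and Plin1, the gene of the lipid droplet coat protein perilipin, from 479 to 846 CPM (log2 fold change 0.84, SE 0.11, limma adjusted p = 9.98e-05). The part of the adipocyte markers in the Rarres2 values was not tested. Rarres2 overlaps the annotation of Lrrc61.

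Neither of the 2 chemerin receptor genes among the 36 was called. Cmklr1 (chr5:113612355-113650475), the signalling receptor for chemerin on macrophages and natural killer cells, was at 129, 124, 122, 116 and 132 CPM in the 5 HFD mice and at 107, 106, 139, 114, 135 and 139 CPM in the 6 HFD + IMC mice. The interval of its log2 fold change was narrow and included 0, at -0.20 to 0.15 (log2 fold change -0.02, SE 0.08, limma adjusted p = 0.841). Ccrl2, which binds chemerin without signalling and presents it to nearby cells, was at 13.2, 12.1, 13.1, 11.6 and 12.7 CPM in the 5 HFD mice and at 10.5, 11.2, 11.5, 11.8, 12.6 and 9.23 CPM in the 6 HFD + IMC mice. It was slightly lower with IMC but not called (log2 fold change -0.18, SE 0.08, limma adjusted p = 0.0990, exact permutation p = 0.0368).

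The remaining ligands were low and none was called by limma or limma voom, nor had any of them an unadjusted p below 0.05. Ccl19, which guides dendritic cells and T cells through Ccr7, had a mean of 2.33 CPM in HFD and 2.81 CPM in HFD + IMC mice (log2 fold change 0.26, SE 0.22, limma adjusted p = 0.361), Ccl22, a ligand of Ccr4, had a mean of 4.75 CPM in HFD and 4.39 CPM in HFD + IMC mice (log2 fold change -0.09, SE 0.14, limma adjusted p = 0.659), and Cx3cl1, the membrane-bound fractalkine, had a mean of 12.2 CPM in HFD and 10.3 CPM in HFD + IMC mice (log2 fold change -0.29, SE 0.28, limma adjusted p = 0.446). Ccl25 and Ccl27a were below 3 CPM in every mouse (0.09 and -0.40 on the log2 scale). Ccl19 and Ccl27a have near-identical copies in the mouse genome, so their counts are uncertain. The interferon-inducible ligand genes Cxcl9, Cxcl10 and Cxcl11, and the T cell attractant Ccl5 were not listed.

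The CC receptor genes Ccr1, Ccr3 and Ccr2 lie near each other at chr9:123962126-124109140 and moved in opposite directions. Ccr1 and Ccr3 fell, and Ccr2 rose. Ccr1 is a receptor of monocytes and macrophages for Ccl3, Ccl6 and Ccl9, Ccr3 is the eotaxin receptor of eosinophils, and Ccr2 brings monocytes from the blood to Ccl2. The 250 bases before a RefSeq start of Ccr1 (chr9:123968693-123968942, minus strand), Ccr3 (chr9:124021721-124021970, plus strand) and Ccr2 (chr9:124101933-124102182, plus strand) are shown in the same way, because they belong to neighbours with opposite changes. Capitals again mark matches to the NF-kB and AP-1 forms. Ccr2 and Ccr3 have further annotated starts. The Ccr3 and Ccr2 stretches lie inside the annotated genes (chr9:124017825-124031692 and chr9:124101918-124109140), and only that of Ccr1 lies outside its gene.
Ccr1: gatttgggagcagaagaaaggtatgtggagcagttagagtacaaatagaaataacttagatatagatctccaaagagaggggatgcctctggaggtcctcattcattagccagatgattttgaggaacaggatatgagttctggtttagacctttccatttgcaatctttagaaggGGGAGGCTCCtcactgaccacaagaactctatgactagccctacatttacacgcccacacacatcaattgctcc
Ccr3: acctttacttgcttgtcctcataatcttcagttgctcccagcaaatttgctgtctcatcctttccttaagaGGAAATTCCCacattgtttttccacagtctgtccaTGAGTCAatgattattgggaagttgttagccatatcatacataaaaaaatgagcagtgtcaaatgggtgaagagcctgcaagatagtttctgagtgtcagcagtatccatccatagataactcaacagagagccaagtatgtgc
Ccr2: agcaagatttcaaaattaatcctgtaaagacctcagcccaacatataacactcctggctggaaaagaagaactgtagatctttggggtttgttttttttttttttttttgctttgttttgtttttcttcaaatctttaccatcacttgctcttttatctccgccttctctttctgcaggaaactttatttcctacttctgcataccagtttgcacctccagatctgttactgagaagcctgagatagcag
The Ccr1 sequence held an NF-kB match beginning at -74, and that of Ccr3 held an NF-kB match at -179 and an AP-1 match at -144. The Ccr2 sequence, which like that of Ccr3 lies inside the annotated gene, held none.

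Ccr2 was at 68.4, 68.0, 72.7, 73.3 and 44.3 CPM in the 5 HFD mice and at 100.3, 76.2, 94.6, 142, 103 and 72.5 CPM in the 6 HFD + IMC mice. All but 1 of the IMC-treated mice were above all HFD mice, and HFD + IMC mouse 6 lay within the HFD range. HFD mouse 5 was far below the other 4 of its group. The level with IMC was 1.49 (95% interval 1.16 to 1.91) times that without. For Ccr2 the log2 fold change was 0.57 (SE 0.17, limma adjusted p = 0.0157), and the exact permutation p was 0.0152. Without HFD mouse 5 the log2 fold change was 0.44 with an adjusted p of 0.0346.

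Ccr1 was at 42.8, 32.3, 30.8, 23.2 and 19.0 CPM in the 5 HFD mice and at 16.1, 15.1, 18.9, 28.1, 18.0 and 15.2 CPM in the 6 HFD + IMC mice. HFD + IMC mouse 4, the highest IMC-treated mouse, was above HFD mice 4 and 5 while the other 5 were below all HFD mice, and the ratio of HFD + IMC to HFD was 0.635 (95% interval 0.471 to 0.858). For Ccr1 the log2 fold change was -0.65 (SE 0.20, limma adjusted p = 0.0196), and the exact permutation p was 0.0281. HFD mouse 1 carried the call, since without it the log2 fold change was -0.51 and the adjusted p 0.0528. The level of Ccr2 relative to Ccr1 was 2.31 ± 0.563 (SD, n = 5) in HFD mice and 5.31 ± 0.548 (SD, n = 6) in HFD + IMC mice, both read from CPM. The highest HFD mouse had a ratio of 3.16 and the lowest IMC-treated mouse one of 4.78. Both genes were already called in opposite directions in these mice, so the ratio is a description and not a further test.

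Ccr3 was at 12.1, 7.08, 11.9, 12.6 and 8.10 CPM in the 5 HFD mice and at 5.20, 4.23, 7.08, 5.53, 6.61 and 3.80 CPM in the 6 HFD + IMC mice. The highest IMC-treated mouse was level with the lowest HFD mouse, and the ratio of HFD + IMC to HFD was 0.524 (95% interval 0.393 to 0.700). For Ccr3 the log2 fold change was -0.93 (SE 0.19, limma adjusted p = 0.00215), and the exact permutation p was 0.00649. The Ccr3 values rest on 92 to 300 reads per mouse.

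Mast cell markers showed the largest shift of the marker lists that had at least 3 listed genes. All 7 fell, against 21.0% of all genes, with a median log2 fold change of -1.42. Their sum was 507 to 1157 CPM in HFD mice and 161 to 326 CPM in HFD + IMC mice, and HFD mouse 1 was the mouse at 1157 CPM. The same mouse was the highest HFD mouse for Ccl3, Ccl9, Ccl11, Cxcl14 and Ccr1, whereas Ccr3 was highest in HFD mouse 4. HFD mouse 1 also had the highest summed macrophage markers (12528 CPM) and the lowest summed adipocyte markers (9553 CPM) of the HFD mice. Without it, Ccl3, Ccl9, Ccl11 and Cxcl14 were still called lower, while Ccr1 was not (limma adjusted p = 0.0528). Whether mast cell RNA contributed to Ccr1, Ccr3 or the ligands was not tested.

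Ccr7 (chr11:99144199-99155077), with which mature dendritic cells and naive T cells find lymph vessels and lymph nodes, was at 4.74, 6.65, 4.29, 6.77 and 4.70 CPM in the 5 HFD mice and at 3.07, 2.91, 3.86, 2.71, 3.13 and 3.67 CPM in the 6 HFD + IMC mice. The groups were apart, on 66 to 161 reads per mouse, and the ratio of HFD + IMC to HFD was 0.600 (95% interval 0.481 to 0.750). For Ccr7 the log2 fold change was -0.74 (SE 0.15, limma adjusted p = 0.00182), and the exact permutation p was 0.00216. Of 5 dendritic cell markers 4 were listed, of which Xcr1 fell and Cd209a rose, and without HFD mouse 4 no dendritic cell marker was called lower. Of 8 T cell markers Cd2 alone was listed, and it was called lower only when HFD mouse 5, HFD + IMC mouse 4 or HFD + IMC mouse 6 was left out. Cxcr4 (chr1:128588199-128592299), the receptor for Cxcl12 on leukocytes and progenitor cells, was at 52.5, 53.7, 44.5, 58.8 and 54.0 CPM in the 5 HFD mice and at 50.2, 43.4, 38.7, 34.8, 40.4 and 31.2 CPM in the 6 HFD + IMC mice. The 2 groups overlapped, with HFD + IMC mouse 1 inside the HFD range, and the ratio of HFD + IMC to HFD was 0.749 (95% interval 0.637 to 0.881). For Cxcr4 the log2 fold change was -0.42 (SE 0.11, limma adjusted p = 0.00836), and the exact permutation p was 0.0108.

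Cxcr3 and Cx3cr1 were not called. Cxcr3, a receptor of T cells and natural killer cells, had a mean of 5.69 CPM in HFD and 4.22 CPM in HFD + IMC mice (log2 fold change -0.39, SE 0.24, limma adjusted p = 0.212). Cx3cr1, the fractalkine receptor of monocytes and tissue macrophages, had a mean of 8.16 CPM in HFD and 8.63 CPM in HFD + IMC mice and a wide interval of -0.48 to 0.52 on the log2 scale. Among the atypical receptors, Ackr3, a scavenger of Cxcl12, had a mean of 77.7 CPM in HFD and 74.7 CPM in HFD + IMC mice and an interval of -0.25 to 0.14. Ackr1, which carries chemokines across the endothelium of venules, had a mean of 9.60 CPM in HFD and 10.2 CPM in HFD + IMC mice and an interval of -0.28 to 0.39. Ackr2, which degrades CC chemokines, had a mean of 9.59 CPM in HFD and 8.95 CPM in HFD + IMC mice and an interval of -0.34 to 0.12. Ackr4, a scavenger of Ccl19 and Ccl25, was lowest at a mean of 2.18 CPM in HFD and 2.38 CPM in HFD + IMC mice, with an interval of -0.45 to 0.78. All 6 blood endothelium markers had positive log2 fold changes, of which Cdh5 was called higher and 3 had an unadjusted p below 0.05. The count called higher rested on single libraries, being 4 without HFD mouse 2 and 2 without HFD mouse 5, HFD + IMC mouse 1 or HFD + IMC mouse 4.

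The ligand reads shifted from Ccl6 and Ccl9 towards Rarres2. The summed CPM of the 22 ligand genes was 2707 ± 215 (SD, n = 5) in HFD mice and 2205 ± 204 (SD, n = 6) in HFD + IMC mice, and that of the 14 receptor genes was 526 ± 46.5 (SD, n = 5) in HFD mice and 505 ± 46.8 (SD, n = 6) in HFD + IMC mice. Ccl6 and Ccl9 together took 64.1% ± 3.06 (SD, n = 5) in HFD mice and 52.4% ± 5.77 (SD, n = 6) in HFD + IMC mice of the summed ligand CPM. Rarres2 took 12.1% ± 2.19 (SD, n = 5) in HFD mice and 21.9% ± 3.90 (SD, n = 6) in HFD + IMC mice. Together with Cxcl12, these genes made up 82.7% ± 0.257 (SD, n = 5) in HFD mice and 82.8% ± 0.732 (SD, n = 6) in HFD + IMC mice, so that 4 genes held most ligand reads in both groups. These sums are descriptions without a test, and they count reads without regard to transcript length.

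**Figure D4:**
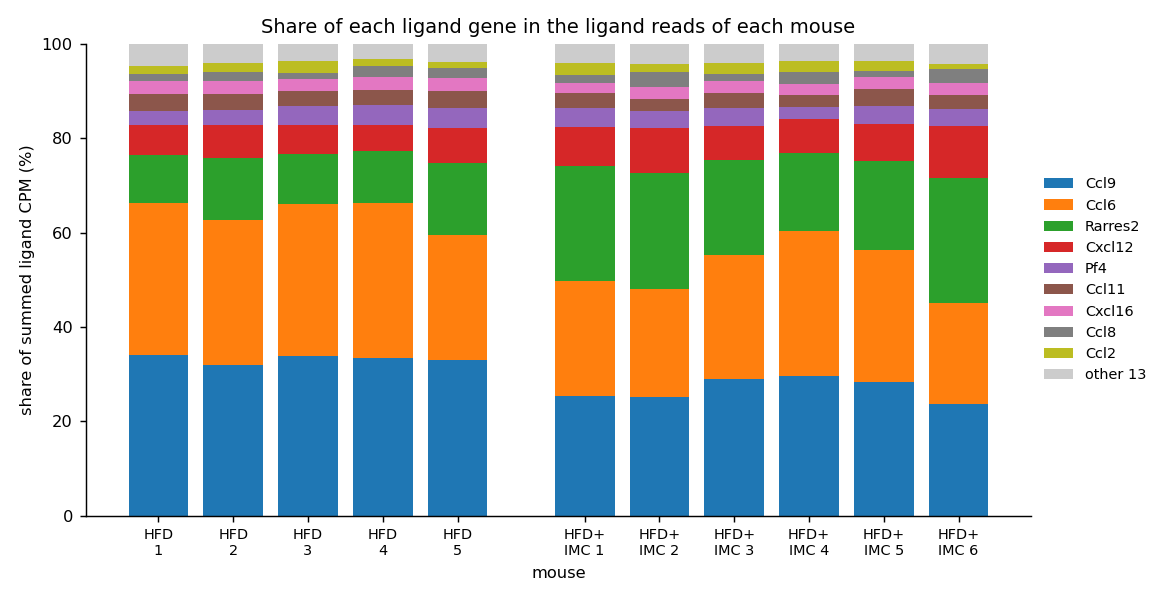
Share in percent of the summed CPM of the 22 ligand genes in each of the 11 mice, with 9 genes in colour and the other 13 in grey. The band of Rarres2 is 10.1 to 15.4% in HFD mice and 16.6 to 26.5% in HFD + IMC mice, while that of Ccl6 and Ccl9 together is 59.4 to 66.4% and 45.0 to 60.3%.

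The per-length scale, which divides by the union of all annotated exons of a gene, allows the genes to be ordered by level. In HFD mice the leading genes were Ccl6, Ccl9, Pf4 (141 CPM per kb), Rarres2 (122), Ccl8 (97.2) and Ccl11 (83.9), followed by Ccl2 (42.4) and by the first receptor gene, Cmklr1 (36.6). The ranges over the HFD mice of Ccl6 and Ccl9 did not overlap, whereas those of Pf4 and Rarres2 did. In HFD + IMC mice Rarres2 (179) lay above Pf4 (108) without overlap, and its range overlapped that of Ccl9 (196). Ccr2 (9.67 CPM per kb in HFD mice) was on average below Ccr1 (10.5) without IMC, with overlapping ranges, and above it with IMC (14.5 against 6.55).

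**Figure D5:**
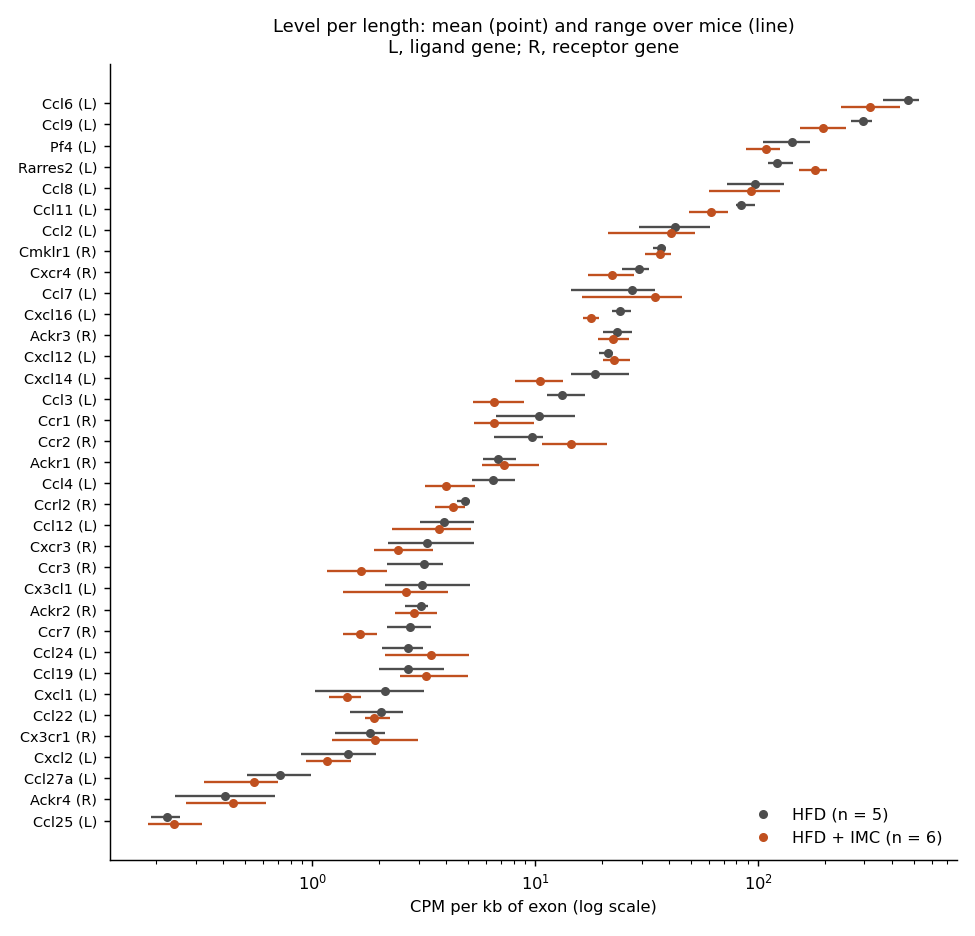
Mean level (point) and range over the mice (line) of 35 of the 36 genes in CPM per kb of exon on a log axis, ordered by the HFD mean, for HFD (grey, n = 5) and HFD + IMC (orange, n = 6). Ccl6 leads with 468 CPM per kb in HFD mice and Ccl25 is last, with a range of more than 3 orders of magnitude between them.

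Receptors and ligands that bind each other were compared by their calls, in a comparison where 40.9% of all genes were called. The pair counts were not tested against that rate. Of 19 textbook pairs looked at with both genes listed, 4 had both lower: Ccr1 with Ccl3, Ccl6 and Ccl9, and Ccr3 with Ccl11. Without HFD mouse 1 the call of Ccr1 was lost and 1 of these pairs, Ccr3 with Ccl11, was left. In 4 pairs the receptor was lower and the ligand not called, as for Cxcr4 and Cxcl12 or Ccr7 and Ccl19. The 3 pairs of Ccr2 with Ccl2, Ccl7 and Ccl12 combined a higher receptor with ligands that were not called. In 2 pairs Rarres2 was higher and its receptor not called, and in 6 pairs neither gene was called. The pairs share genes and are not independent.

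Genes that act downstream of chemokine receptors fell more often than they rose. All 38 such genes looked at were listed, of which 23 fell, 2 rose and 13 were not called, with a median log2 fold change of -0.21. Of all genes, 21.0% fell and 20.0% rose, with a median of -0.03. Gnai1, an inhibitory G-protein subunit, had the smallest p of the list and rose (log2 fold change 0.73, SE 0.09, adjusted p = 7.49e-05), as did Grk5, a kinase that desensitises receptors. Rac2, a GTPase of blood cells that drives actin at the leading edge, fell (log2 fold change -0.73, SE 0.09, adjusted p = 0.000103). Rgs1, which shortens G-protein signals in leukocytes, fell too (log2 fold change -0.78, SE 0.11, adjusted p = 0.000177). The macrophage markers given above moved in the direction of the 23 genes that fell, and not of Gnai1 and Grk5. Their part in the values of the 38 genes was not tested.

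Genes of the pathways that control chemokine transcription fell in part. The list of 32 genes holds cytokines, their receptors, adaptors, kinases and transcription factors as well as NF-kB inhibitors, and 28 were listed. Of these, 12 fell (42.9%, against 21.0% of all genes), with a median log2 fold change of -0.18. None rose, against 20.0% of all genes (limma and limma voom, also at an unadjusted p below 0.05). Without HFD mouse 1, 8 fell and 1 rose. Jun, an AP-1 subunit, fell (log2 fold change -0.40, SE 0.07, adjusted p = 0.000922). Myd88 and Ticam1, the adaptors of Toll-like receptors, fell as well (log2 fold change -0.30, SE 0.06, adjusted p = 0.00130 for Myd88, and log2 fold change -0.23, SE 0.05, adjusted p = 0.00315 for Ticam1). Tnf, the classical cytokine inducer of Ccl2 and Cxcl1, named here after its values were seen, went from 6.27 to 3.98 CPM on average (log2 fold change -0.70, SE 0.17, adjusted p = 0.00564). Il1a, Il1b, Il6 and Ifng were not listed.

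Of 3 listed lymphatic endothelium markers, Pdpn fell (log2 fold change -0.42), while Lyve1 (0.53) and Flt4 (0.33) were not called, and 1 marker was called higher without HFD mouse 2. Mesothelium had 1 of 4 genes lower (25%), near the 21.0% of all genes. Natural killer cells had none of 4 called by limma, none by limma voom and none at an unadjusted p below 0.05. None of the 6 B cell markers was listed. Of 7 skeletal muscle markers Acta1 and Myh2 were listed and rose, with a sum of 12.2 to 17.4 CPM in HFD mice and 29.8 to 55.7 CPM in HFD + IMC mice.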

How the data were processed

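RNA was sequenced from gonadal white adipose tissue of 5 HFD and 6 HFD + IMC mice, with 1 directional library per mouse, and sample labels gave the groups. In the study's methods, reads were trimmed (Trim Galore), aligned to mm10 with STAR and UCSC transcript annotations, and counted per gene by STAR. The strand setting of that count is not given in the sources used here. By the study's account, the authors left out transcripts under 1 CPM in all samples, normalized by upper quartile in edgeR and took log2 CPM values from its cpm function. The transcript numbers that the study gives for that filter leave fewer than the 12787 genes listed. Every listed gene had at least 5 reads in every mouse, which that filter alone does not require. The reason why a given gene was not listed is therefore not known. The deposited table also holds columns of the authors' own comparison (a fold change, a mean level, a likelihood ratio, a p-value and an FDR), which were not used.

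The log2 CPM values were fitted with limma 3.58.1 in R 4.3.3 (lmFit, eBayes with trend) over all 12787 genes with Benjamini-Hochberg adjustment, because count tests do not suit values on a log scale. For single genes, the difference of group means was also set against its 462 possible reassignments of the 11 mice (exact permutation test, two-sided). Reads were recovered from the equal steps of the CPM values within each mouse, and 100% were whole to within 0.02 reads. They gave the depth and the other scalings, and say nothing of errors beyond counting, since reads are not independent molecules. Coordinates and promoter windows come from RefSeq (GRCm38.p6), in which all 36 symbols were found. Exon lengths come from GENCODE, as the union of all annotated exons of a gene. That union can be longer than the transcripts expressed in the tissue, which can affect the order of genes per kb. Called genes and the 3 ligand and 3 receptor genes with the highest mean CPM are given in full, the others by mean or count or beside a gene they pair with, and the 3 genes with the smallest p from the signalling and inducer lists. The values of 1 receptor gene are part of the counts and sums but are not reported here. The members and gene lists were chosen with earlier results of these data known. The fitting code was tested on simulated data.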

Additional observations from a re-analysis of the deposited data

Results flagged for a closer look

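The 36 genes gave 72 sets of values, 5 HFD or 6 HFD + IMC mice each, in which the highest and the lowest mouse were compared with the rest by Dixon's criterion, and chance alone marks about 1 in 20 such sets. In 5 of them a mouse stood apart. For Ccl11, HFD mouse 1 was at 105.2 CPM while the other HFD mice were at 85.72 to 88.47 CPM. For Ccr2, HFD mouse 5 was at 44.34 CPM and the others at 67.99 to 73.28 CPM. For Ackr2, HFD mouse 1 was at 8.115 CPM and the others at 9.763 to 10.29 CPM. For Ccr1, HFD + IMC mouse 4 was at 28.09 CPM and the others at 15.09 to 18.95 CPM. For Ccl22, HFD + IMC mouse 6 was at 5.197 CPM and the others at 4.025 to 4.402 CPM. Ccl11 stayed lower and Ccr2 stayed higher without the mouse that stood apart (log2 fold changes -0.40 and 0.44, limma adjusted p = 0.00816 and 0.0346), and Ccr1 without HFD + IMC mouse 4 had a log2 fold change of -0.78 and an adjusted p of 0.00426.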

How the results depend on the processing

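Each result was refitted under 17 alternatives: 6 other settings (no trend, total-count or median-of-ratios scaling, 2 reads added, limma voom, or genes with a mean log2 CPM of at least 1) and 11 fits that left out 1 mouse each. Of the 14 called genes, 12 were called in the same direction in all 17. Ccr1 was not called without HFD mouse 1 (log2 fold change -0.51, adjusted p = 0.0528), and Pf4 was not called without any 1 of 5 mice (adjusted p 0.0536 to 0.0761, log2 fold change -0.48 to -0.30 over all fits that left out a mouse). Cxcl1 was called without HFD mouse 5 (-0.72, adjusted p = 0.00490) and ranged from -0.72 to -0.32. The count of lower ligands was 7 to 8, of lower receptors 3 to 4, and of lower genes of the inducer list 8 to 14 over all alternatives, the 8 being reached without HFD mouse 1 or HFD + IMC mouse 6. The inducer list had 0 to 1 genes higher when a mouse was left out, the 1 being without HFD mouse 1. All genes called numbered 4299 to 5464. The sign of 6 genes that were not called turned in some fit: leaving out mice gave log2 fold changes of -0.054 to 0.125 for Ackr1, -0.20 to 0.034 for Ccl12, -0.12 to 0.14 for Cx3cr1, -0.21 to 0.0855 for Ccl2, -0.20 to 0.015 for Ccl8 and -0.060 to 0.018 for Cmklr1, and total-count scaling gave -0.0090 for Cx3cr1. The cause of these shifts was not tested. The median log2 fold change of all genes was -0.03 in the fit reported, -0.06 with total-count and -0.02 with median-of-ratios scaling. Depth limits the low genes: 14 of the 36 had fewer than 100 reads in some mouse. No paired analysis was possible because the 2 groups are different mice and the labels give no pairing. The mouse numbers only count the mice within each group.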

Other observations

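Receptors related to the chemokine receptors but outside the symbols of the rule are named here after their values had been seen. Xcr1, the receptor of conventional dendritic cells for the XC chemokines, fell from 2.92 to 1.79 CPM on average from HFD to HFD + IMC mice (log2 fold change -0.67, SE 0.21, adjusted p = 0.0212 by limma, a call lost without HFD mouse 4), while its ligand gene Xcl1 was not listed. Gpr1, another receptor for chemerin, went from 2.72 to 2.86 CPM without a call (log2 fold change 0.15, SE 0.24, adjusted p = 0.656), and Gpr35, likewise not called, from 9.72 to 9.85 CPM (log2 fold change -0.0040, SE 0.14, adjusted p = 0.986). Dpp4, a peptidase that trims the ends of several chemokines, was not called at 58.8 to 55.7 CPM (log2 fold change -0.12, SE 0.18, adjusted p = 0.636). Cd209a, a marker of monocyte-derived dendritic cells, rose from 4.95 to 8.29 CPM (log2 fold change 0.81, SE 0.21, adjusted p = 0.00869).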
